A study of Homo sapiens with 12 samples.

Results

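The genes described here are the feedback regulators and one transcription factor of the RAS to ERK pathway, measured in H929, a long-established human line of multiple myeloma, the tumour of plasma cells, that is known to carry a mutant NRAS. They were chosen by symbol, as every probe set whose only gene in the platform annotation was NRAS, DUSP4, DUSP5, DUSP6, SPRY1, SPRY2, SPRY4, SPRED1, SPRED2 or ETV5. That gave 22 of the 54675 probe sets, for 9 of the 10 genes. No probe set had NRAS as its only symbol in that table, so its level was not analysed here, its mutation was not measured, and NRAS enters only through its promoter sequence.

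All 12 arrays held RNA of H929 cells, in 4 groups of 3. One arm was infected and then sorted for cells positive for green fluorescent protein (GFP): it holds cells with the short hairpin RNA shBCL9, which is directed at BCL9, a coactivator of the Wnt pathway, and control cells with shGFP. The other arm was transfected: it holds cells that received miR-30, listed in the labels as hsa-miR-30a/b/c/d/e without saying whether the members were given together, and control cells that received cel-miR-67, a microRNA of the worm. The times after infection or transfection and the doses are not given in the sources used here, and no group is an untreated one. The series compares loss of BCL9 with gain of miR-30, which its title presents as acting on BCL9. The labels do not say that the replicates are separate cultures, so the p-values measure the spread between arrays, which may be technical. Each array gives a mean over a whole sample, in which fewer cells of a type and less RNA per cell cannot be told apart.

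RAS proteins are switches at the membrane that, once loaded with GTP, start a kinase relay through RAF and MEK to ERK, and ERK then phosphorylates transcription factors of the ETS and AP-1 kinds. Among the genes that ERK turns on are its own brakes: the dual-specificity phosphatases DUSP4, DUSP5 and DUSP6 remove phosphate from ERK, and the Sprouty (SPRY) and SPRED proteins block the steps at RAS and RAF. The mRNA levels of these genes and of ETV5, an ETS factor, are therefore widely read as an output of the pathway, including in myeloma, where mutations of the pathway are common.

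The microRNAs of the transfected arm are shown for the seed that they share, since the seed, bases 2 to 8 from the 5′ end, is the part that pairs with target mRNAs. The mature sequences are those of RefSeq (GRCh38.p14), with the seed in capitals. The family members b and d are named only. miR-30a comes from chr6:71403595-71403616 on the minus strand, miR-30e from chr1:40754371-40754392 on the plus strand, and miR-30c from chr1:40757300-40757322 on the plus strand and chr6:71377003-71377025 on the minus strand.
hsa-miR-30a-5p: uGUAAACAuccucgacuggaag
hsa-miR-30c-5p: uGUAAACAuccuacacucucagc
hsa-miR-30e-5p: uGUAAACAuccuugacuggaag

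Levels are log2 intensities, so a difference of 1 is a doubling of the signal, and levels of different probe sets are not set against each other. BCL9 had 7.73, 7.61 and 7.85 in the shBCL9 arrays, against 7.88, 7.90 and 7.88 in the shGFP arrays, a difference of -0.15 that was not called (adjusted p = 0.107), although the 3 shBCL9 arrays all lay below the 3 shGFP arrays. It had 7.99, 8.05 and 7.83 in miR-30 cells, against 7.82, 7.86 and 7.79 in cel-miR-67 cells (difference 0.14, adjusted p = 0.338), and these groups overlapped. All 7 plasma cell markers passed the filter on low values. In shBCL9 cells 3 of them were called higher (SDC1, CD38 and SLAMF7, by 0.88, 0.71 and 0.60), 2 lower (TNFRSF17 and PRDM1, at -0.18 and -0.22) and 2 not. Of all 14729 genes, 17.1% were called higher there and 21.8% lower. In miR-30 cells 1 marker was called lower, CD38 (-0.29, adjusted p = 0.0205), and 6 were not called, beside 1.76% of all genes higher and 1.5% lower. Of the further myeloma markers, FGFR3 was lower in shBCL9 cells (-0.80, adjusted p = 2.48e-06) and NSD2 was not called (0.11). Of the markers of other cell types CD2, CD3G, LYZ, CD14, COL1A2, COL3A1 and EPCAM did not pass the filter, and CD3D, CD3E, CSF1R, HBB, COL1A1 and CDH1 did. CDH1, an epithelial cadherin, averaged 3.58 ± 0.22 in shGFP cells and 5.99 ± 0.099 in cel-miR-67 cells. Some measures of RNA quality differed between groups: the signal of 18S rRNA was 13.23 ± 0.02 in shBCL9 cells and 12.38 ± 0.07 in shGFP cells, and 12.64 ± 0.04 in miR-30 cells and 12.51 ± 0.05 in cel-miR-67 cells. The difference between 3′ and 5′ probe sets of ACTB was 1.67 ± 0.08 in shBCL9 cells and 1.30 ± 0.11 in shGFP cells, and 2.07 ± 0.01 in miR-30 cells and 2.16 ± 0.09 in cel-miR-67 cells. The same difference for GAPDH was 0.13 ± 0.02 in shBCL9 cells and 0.14 ± 0.02 in shGFP cells. It was 0.20 ± 0.04 in miR-30 cells and 0.18 ± 0.04 in cel-miR-67 cells. The GAPDH values overlapped within each arm and were not used as a covariate. Values given with ± are means and SDs over 3 arrays.

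In shBCL9 cells the feedback genes did not move as a block. DUSP4 rose in 3 of 3 tested probe sets, SPRY2 and SPRY4 each in a single probe set, SPRY1 in 1 of 2 and ETV5 in 2 of 4. DUSP6 fell in 3 of 3 and SPRED1 in 2 of 3, while DUSP5 and SPRED2 were not called. Of the 19 probe sets that passed the filter (above the 40th percentile of the array in at least 3 arrays), 8 were called higher, 5 lower and 6 not, where a call is an adjusted p under 0.05. The other 3 of the 22, 2 of SPRED2 and 1 of ETV5, exceeded that level in 0 of the 12 arrays and were not tested. Over all 34402 probe sets tested, 16.3% were called higher and 21% lower, so calls in both directions were common. The median difference of the 19 was 0.18, against 0.02 over all probe sets tested. The arrays of shBCL9 and shGFP did not overlap for 15 of the 19, 8 with shBCL9 above and 7 with it below, and for 49.2% of all probe sets. Several probe sets read the same mRNA, so they are repeats of a measurement and not separate genes.

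In miR-30 cells 2 of the 19 probe sets were called higher than in cel-miR-67 cells, one of DUSP4 and one of SPRY1, 0 were called lower, and 17 were not called. The background was 1.45% called higher and 1.22% lower. The median difference of the 19 was 0.10, against -0.01 over all probe sets tested. The arrays did not overlap for 6 of the 19, all with miR-30 above, and for 22.9% of all probe sets.

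**Figure D1:**
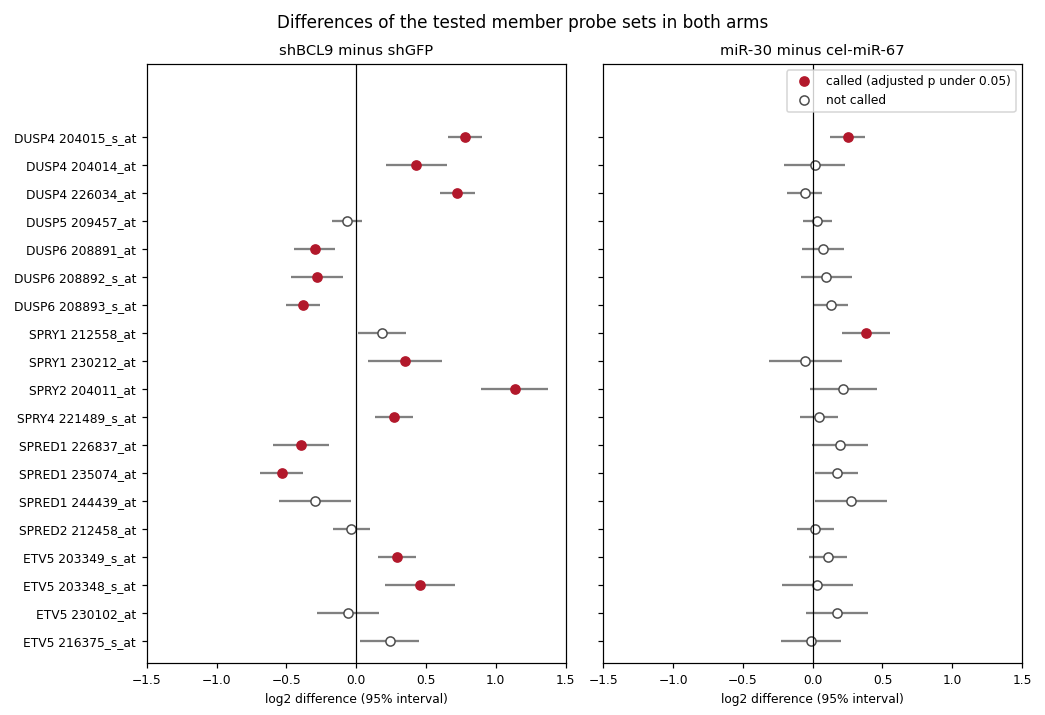
Log2 differences of the 19 tested probe sets, shBCL9 minus shGFP on the left and miR-30 minus cel-miR-67 on the right; points are limma estimates, lines are 95% intervals, and filled points were called at an adjusted p under 0.05. The left panel spreads from -0.53 for a SPRED1 probe set to 1.13 for SPRY2, and the right panel from -0.06 to 0.38.

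DUSP4, a nuclear phosphatase of ERK, was higher in shBCL9 cells in all of its 3 probe sets. Probe set 204015_s_at gave 9.51, 9.56 and 9.49 in shBCL9 cells, against 8.72, 8.79 and 8.70 in shGFP cells. The lowest shBCL9 array stood well above the highest shGFP array, and the difference was 0.78 ± 0.06 (SE), 1.72-fold (adjusted p = 5.6e-07). Probe set 226034_at gave 8.23, 8.17 and 8.26 in shBCL9 cells, against 7.40, 7.55 and 7.54 in shGFP cells, a difference of 0.73 ± 0.06 (adjusted p = 1.1e-06). Only 3.32% and 4.02% of all probe sets tested differed by more in either direction than these probe sets did. The third, 204014_at, gave 7.98, 8.09 and 7.85 in shBCL9 cells, against 7.38, 7.46 and 7.79 in shGFP cells, which came closer but did not overlap (0.43 ± 0.10, adjusted p = 0.00512). With the ACTB 3′ to 5′ difference as a covariate 204014_at was at 0.070 and not called (adjusted p = 0.846). With the 18S rRNA signal as a covariate 204014_at was at -0.052, 226034_at at -0.097 and 204015_s_at at 0.83. None was called in that fit (adjusted p = 0.993, 0.972 and 0.652).

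In the transfected arm the probe sets of DUSP4 disagreed. With 204015_s_at, miR-30 cells had 9.00, 8.98 and 9.12, against 8.73, 8.84 and 8.78 in cel-miR-67 cells. The groups did not overlap, and the difference of 0.25 ± 0.06, 1.19-fold, was called (adjusted p = 0.0403). The call was lost under 14 of 19 alternative settings, over which the adjusted p ran between 0.00687 and 0.335. With 204014_at the difference was 0.01 (95% interval -0.20 to 0.23) and with 226034_at it was -0.06 (95% interval -0.18 to 0.07), neither called, and in both the arrays overlapped.

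The DUSP4 probe sets also placed the 4 groups in different orders. By 204014_at the transfected cells stood highest, with 9.08, 9.04 and 8.88 after miR-30 and 8.91, 9.06 and 8.98 after cel-miR-67, above every infected array. By 204015_s_at the shBCL9 cells stood highest and the shGFP and cel-miR-67 arrays overlapped. The probe set 226034_at put the miR-30 and cel-miR-67 arrays, which overlapped, at 8.28 to 8.42, just above the shBCL9 arrays. The suffix _s_at marks a probe set that can bind more than one transcript, and which DUSP4 transcripts each probe set reads was not tested.

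**Figure D2:**
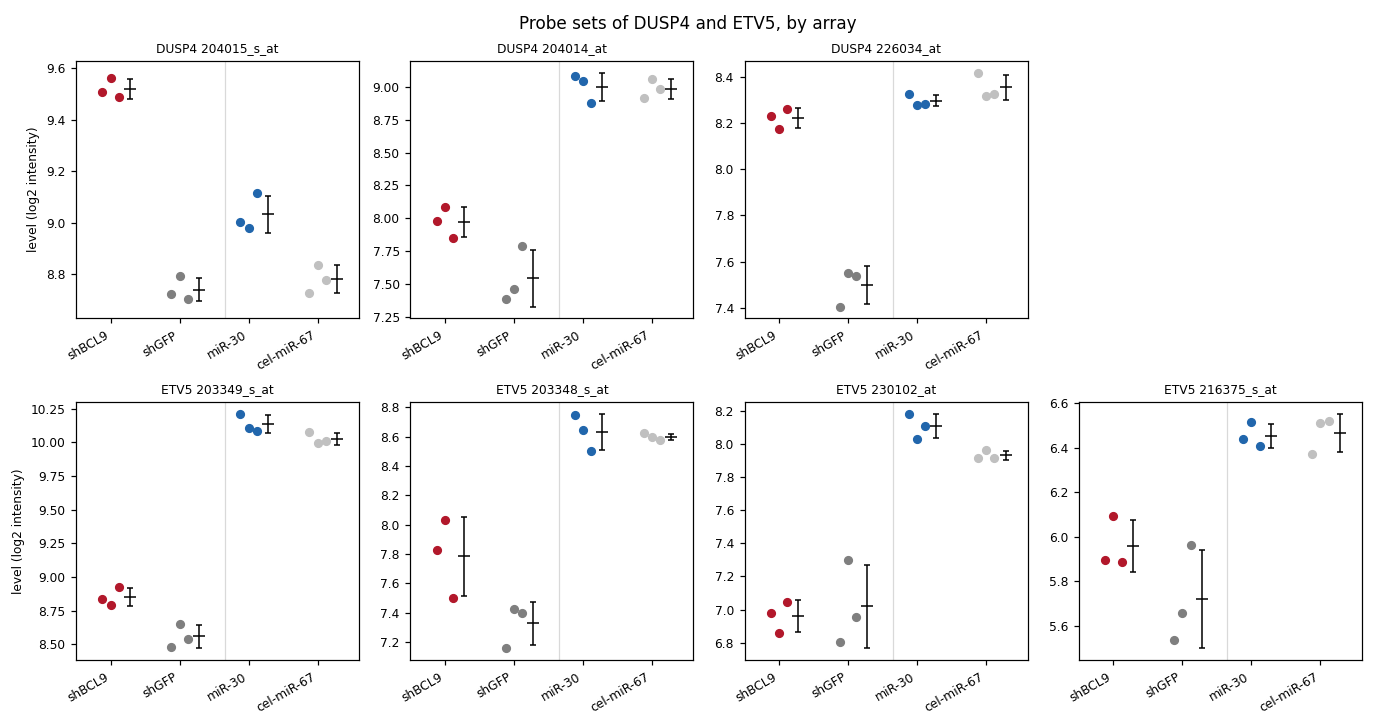
Levels (log2 intensity) of the 3 probe sets of DUSP4 and the 4 tested probe sets of ETV5 in each array, with the mean and SD of each group of 3 beside its points; each panel has its own axis. Within DUSP4 the shBCL9 arrays are highest by 204015_s_at and lie below both transfected groups by the other probe sets, while the ETV5 panels all place the transfected groups above the infected ones.

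DUSP5, a nuclear phosphatase that binds ERK, was among the brightest signals on the arrays, brighter than 99.0% of all probe sets by its mean. Its probe set 209457_at gave 12.68, 12.67 and 12.64 in shBCL9 cells, against 12.73, 12.71 and 12.73 in shGFP cells. Every shBCL9 array was below every shGFP array, but by little: the difference was -0.06 (95% interval -0.17 to 0.04, adjusted p = 0.323). In the transfected arm it was 12.18, 12.23 and 12.13 after miR-30 and 12.16, 12.14 and 12.14 after cel-miR-67, groups that overlapped (difference 0.03, 95% interval -0.07 to 0.14, adjusted p = 0.786).

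DUSP6, the cytoplasmic phosphatase of ERK, was lower in shBCL9 cells in all 3 of its probe sets. Probe set 208893_s_at gave 10.11, 10.14 and 10.03 in shBCL9 cells, against 10.43, 10.48 and 10.50 in shGFP cells. These groups were well apart, with a difference of -0.38 ± 0.06, or 1.3-fold lower (adjusted p = 0.000195). Probe set 208891_at gave 11.44, 11.50 and 11.49 in shBCL9 cells, against 11.67, 11.77 and 11.88 in shGFP cells (-0.30 ± 0.07, adjusted p = 0.00452). Probe set 208892_s_at gave 11.03, 10.98 and 11.17 in shBCL9 cells, against 11.20, 11.36 and 11.47 in shGFP cells, and its difference of -0.28 ± 0.08 rested on individual arrays (adjusted p = 0.0203). That call was lost on leaving out shGFP replicate 2 or 3 or shBCL9 replicate 1 or 2, with adjusted p-values of 0.057, 0.0854, 0.0603 and 0.0693.

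After miR-30 none of the DUSP6 probe sets was called. The differences were 0.07, 0.10 and 0.13 for 208891_at, 208892_s_at and 208893_s_at, with adjusted p-values of 0.648, 0.61 and 0.247. With 208893_s_at the 3 miR-30 arrays, at 9.98, 9.93 and 9.98, all lay above the 3 cel-miR-67 arrays, at 9.85, 9.76 and 9.89. DUSP5 and DUSP6 shared the order of their group means, with shGFP highest, then shBCL9, then miR-30, then cel-miR-67. For DUSP6 208892_s_at the shBCL9 and miR-30 arrays overlapped, and the miR-30 and cel-miR-67 arrays overlapped for each of these probe sets but 208893_s_at.

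**Figure D3:**
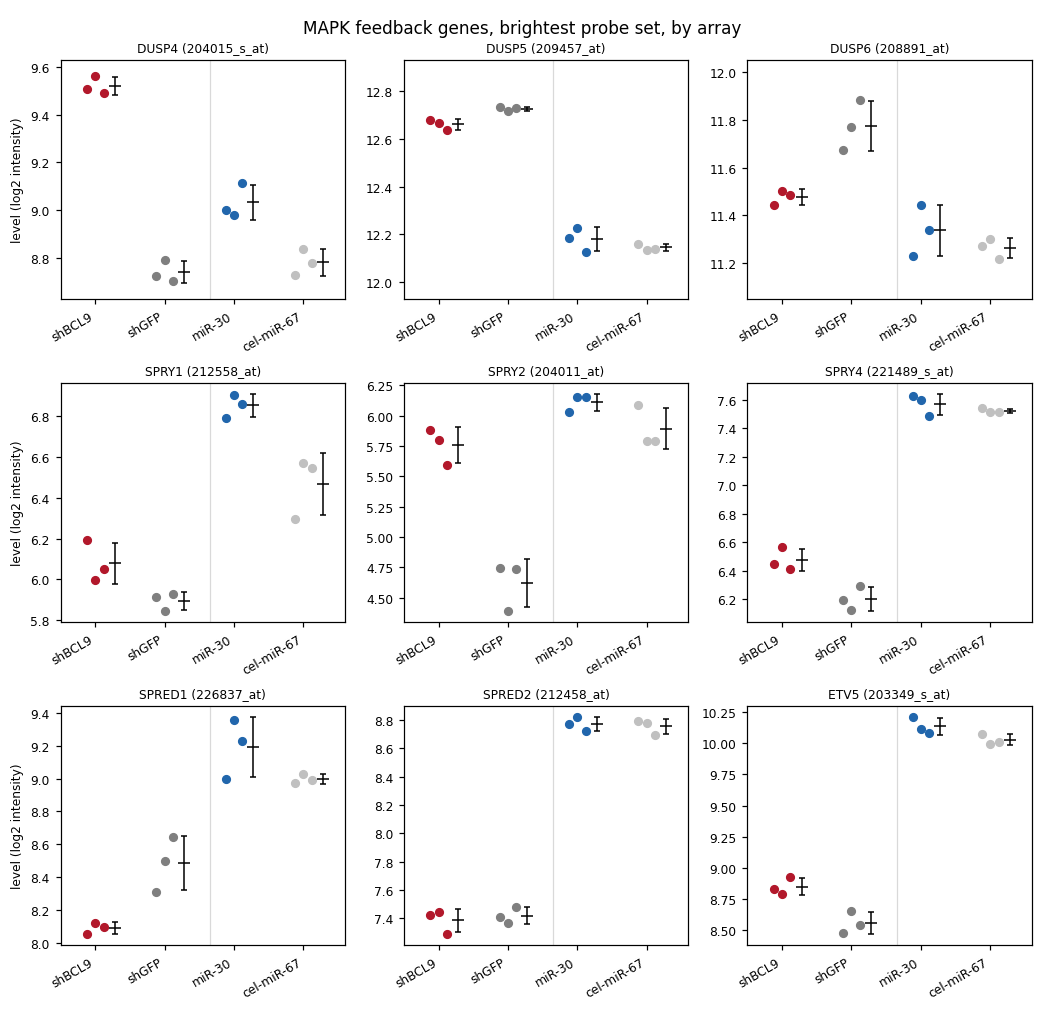
Levels (log2 intensity) of the brightest probe set of each of the 9 genes in each of the 12 arrays, with the mean and SD of each group of 3 beside its points; each panel has its own axis. SPRY2 averages 5.76 in shBCL9 cells and 4.62 in shGFP cells, DUSP5 and DUSP6 are highest in the infected cells, and SPRY4, SPRED2 and ETV5 are highest in the transfected cells.

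SPRY2, a Sprouty protein that restrains receptor signalling upstream of ERK, had the largest difference among the 19 probe sets. Its probe set 204011_at gave 5.88, 5.80 and 5.59 in shBCL9 cells, against 4.74, 4.39 and 4.73 in shGFP cells. The groups were far apart, with a difference of 1.13 ± 0.11, or 2.2-fold (adjusted p = 6.13e-06), and 1.12% of all probe sets tested differed by more. The shGFP arrays lay under the filter level, which was 4.86 to 4.95 across arrays, so the probe set passed through the other groups and the size of the difference is measured from a value near background. In the transfected arm it had 6.03, 6.15 and 6.15 after miR-30, against 6.09, 5.79 and 5.79 after cel-miR-67, which overlapped (difference 0.22, 95% interval -0.02 to 0.46, adjusted p = 0.336).

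SPRY4, which acts likewise on the way to RAF, was higher by 0.27 ± 0.06 in shBCL9 cells (1.21-fold, adjusted p = 0.00509). Its probe set 221489_s_at gave 6.45, 6.56 and 6.42 in shBCL9 cells, against 6.19, 6.13 and 6.29 in shGFP cells, without overlap. The call was lost with the ACTB 3′ to 5′ difference as a covariate (0.17, adjusted p = 0.453). After transfection the values were 7.62, 7.59 and 7.49 with miR-30 and 7.54, 7.51 and 7.52 with cel-miR-67, which overlapped (difference 0.04, 95% interval -0.09 to 0.18, adjusted p = 0.782).

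SPRY1, the third Sprouty gene, had the larger of the calls after miR-30. Its brighter probe set, 212558_at, gave 6.79, 6.91 and 6.86 in miR-30 cells, against 6.30, 6.57 and 6.54 in cel-miR-67 cells, with no overlap. The difference was 0.38 ± 0.08, or 1.3-fold (adjusted p = 0.0243), and 1.40% of all probe sets differed by more. The call was lost on leaving out cel-miR-67 replicate 1, miR-30 replicate 2 or miR-30 replicate 3 (adjusted p = 0.0716, 0.104 and 0.0651) and in a fit to the 6 transfected arrays alone (adjusted p = 0.0733). In shBCL9 cells the same probe set gave 6.19, 6.00 and 6.05, against 5.91, 5.85 and 5.93 in shGFP cells, above without overlap but not called (difference 0.18, 95% interval 0.01 to 0.35, adjusted p = 0.0834).

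The dimmer SPRY1 probe set, 230212_at, lay close to the filter level and gave a different picture. It had 5.33, 5.37 and 5.58 in shBCL9 cells, against 5.34, 5.06 and 4.83 in shGFP cells, which overlapped. The difference of 0.35 ± 0.12 was called (adjusted p = 0.0384) but lost its call under 10 of 17 alternatives, among them the fit without shGFP replicate 3 (0.23, adjusted p = 0.161). In miR-30 cells it had 4.85, 4.88 and 5.16, against 4.91, 5.03 and 5.10 in cel-miR-67 cells, a difference of -0.05 (adjusted p = 0.877).

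RefSeq promoters, taken as 250 bases before to 50 bases after a gene's start on GRCh38.p14, were used for 7 of the 10 genes and numbered 11. Promoters of DUSP4, DUSP5 and ETV5 are not reported here. The ETS core CCGGAA, searched on both strands, was in 3 of the 11, one each of NRAS, SPRY1 and SPRY2, and in 17.2% of 35116 promoters of that length. The cAMP response element TGACGTCA was in 0 of the 11 and in 1.85% of all, and the AP-1 motif TGANTCA was in 1 of the 11, of SPRED2, and in 7.71% of all. The SPRY1 and SPRY2 promoters with a match are printed because these genes had the largest difference in each arm, with the match in capitals. The motifs searched did not overlap in these promoters, a match is not a measured binding site, and which of a gene's starts was used in H929 cells was not tested. The SPRY2 promoter lies at chr13:80341077-80341376 on the minus strand and the SPRY1 promoter at chr4:123398136-123398435 on the plus strand.
SPRY2: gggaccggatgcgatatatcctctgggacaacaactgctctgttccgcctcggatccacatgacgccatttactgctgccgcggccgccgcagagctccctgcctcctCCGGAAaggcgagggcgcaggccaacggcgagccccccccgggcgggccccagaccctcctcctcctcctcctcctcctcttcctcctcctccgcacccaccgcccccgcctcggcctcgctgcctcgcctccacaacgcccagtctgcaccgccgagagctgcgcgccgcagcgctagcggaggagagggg
SPRY1: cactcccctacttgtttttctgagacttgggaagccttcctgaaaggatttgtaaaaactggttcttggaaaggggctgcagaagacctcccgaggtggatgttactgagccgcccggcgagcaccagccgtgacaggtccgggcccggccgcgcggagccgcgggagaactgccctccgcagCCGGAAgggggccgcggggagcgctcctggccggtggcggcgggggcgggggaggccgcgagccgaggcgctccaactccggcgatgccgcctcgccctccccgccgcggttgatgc

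SPRED1, which recruits the RAS inhibitor neurofibromin (NF1) to the membrane, was lower in shBCL9 cells. Probe set 235074_at gave 6.96, 6.77 and 6.69 in shBCL9 cells, against 7.30, 7.35 and 7.36 in shGFP cells. No arrays overlapped, and the difference was -0.53 ± 0.07, or 1.45-fold lower (adjusted p = 8.35e-05). The brightest probe set, 226837_at, gave 8.05, 8.12 and 8.10 in shBCL9 cells, against 8.31, 8.50 and 8.64 in shGFP cells (-0.39 ± 0.09, adjusted p = 0.00539). The dimmest, 244439_at, had 4.71, 4.89 and 4.72 in shBCL9 cells, near the filter level, against 5.15, 5.10 and 4.96 in shGFP cells. It lay below without overlap but was not called (-0.30, adjusted p = 0.0682).

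After miR-30 the 3 SPRED1 probe sets all had positive differences, of 0.20, 0.17 and 0.27 for 226837_at, 235074_at and 244439_at, and none was called (adjusted p = 0.303, 0.231 and 0.258). With 235074_at the miR-30 arrays, at 7.88, 7.91 and 7.97, stood above the cel-miR-67 arrays, at 7.79, 7.79 and 7.66, without overlap. With 226837_at they were 9.00, 9.36 and 9.23, against 8.97, 9.03 and 8.99 in cel-miR-67 cells, and overlapped, and the arrays of 244439_at overlapped too.

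SPRED2, its relative, was measured above the filter by a single probe set and was called in neither arm. Probe set 212458_at gave 7.42, 7.44 and 7.29 in shBCL9 cells, against 7.41, 7.37 and 7.48 in shGFP cells (difference -0.03, 95% interval -0.17 to 0.10, adjusted p = 0.692). It gave 8.77, 8.82 and 8.72 in miR-30 cells, against 8.80, 8.78 and 8.69 in cel-miR-67 cells (difference 0.02, 95% interval -0.12 to 0.15, adjusted p = 0.921). Both pairs of groups overlapped. Of the other probe sets, 212466_at had 4.52, 4.57 and 4.66 in shBCL9 cells and 4.22, 4.42 and 4.07 in shGFP cells. It had 4.18, 4.25 and 4.50 in miR-30 cells and 4.02, 4.24 and 4.39 in cel-miR-67 cells. The last, 214026_s_at, ran between 3.00 and 3.28 over the 12 arrays, and both were under the filter level in every array.

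ETV5, an ETS transcription factor that ERK signalling induces, was higher in shBCL9 cells by 2 of its 4 tested probe sets. Probe set 203349_s_at gave 8.83, 8.79 and 8.92 in shBCL9 cells, against 8.48, 8.65 and 8.54 in shGFP cells. The groups did not overlap, and the difference was 0.29 ± 0.06, or 1.23-fold (adjusted p = 0.00299). With the ACTB 3′ to 5′ difference as a covariate it was 0.25 and not called (adjusted p = 0.256), and with the 18S rRNA signal it was -0.31. Probe set 203348_s_at gave 7.83, 8.03 and 7.50 in shBCL9 cells, against 7.16, 7.42 and 7.40 in shGFP cells, also without overlap (0.46 ± 0.12, adjusted p = 0.00824). Its sign turned with either covariate, to -0.12 with the ACTB difference and to -0.01 with the 18S rRNA signal.

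The other ETV5 probe sets were not called in shBCL9 cells. Probe set 216375_s_at had 5.89, 6.09 and 5.89 in shBCL9 cells, against 5.54, 5.66 and 5.96 in shGFP cells (0.24, adjusted p = 0.0742). Probe set 230102_at had 6.98, 6.86 and 7.05 in shBCL9 cells, against 6.81, 7.30 and 6.95 in shGFP cells (-0.06, adjusted p = 0.682). Both overlapped, and in 230102_at shGFP replicate 2 was the highest infected array. The fifth probe set, 231083_at, was under the filter level in all arrays, at 3.97 to 4.45 in shBCL9 cells and 3.50 to 3.94 in shGFP cells. With no filter it was called higher in shBCL9 cells (0.42, adjusted p = 0.0305), as was SPRED2 212466_at (0.35, adjusted p = 0.0373), both at levels where the arrays hold little signal.

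After miR-30 none of the ETV5 probe sets was called. The brightest, 203349_s_at, gave 10.21, 10.11 and 10.08 in miR-30 cells, against 10.07, 9.99 and 10.01 in cel-miR-67 cells. The miR-30 arrays were all above, by a small margin (0.11, 95% interval -0.03 to 0.25, adjusted p = 0.414). Probe set 230102_at was likewise above without overlap, with 8.18, 8.03 and 8.11 in miR-30 cells and 7.91, 7.96 and 7.92 in cel-miR-67 cells (0.18, adjusted p = 0.41). The remaining tested probe sets, 203348_s_at and 216375_s_at, overlapped, with differences of 0.03 and -0.01.

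A call in one arm and not in the other does not show that the effects differ, so the effect of shBCL9 minus that of miR-30 was tested in the same fit. It was called for 9 of the 19 probe sets, 3 higher and 6 lower, where 8.61% of all probe sets were called higher and 13% lower. The higher ones were SPRY2 204011_at (0.92, adjusted p = 0.00115, with the shGFP arrays under the filter level), DUSP4 226034_at (0.78, adjusted p = 2.92e-05) and DUSP4 204015_s_at (0.53, adjusted p = 0.00057). The lower ones were all of DUSP6 and SPRED1, with 3 probe sets each: the DUSP6 differences were -0.37, -0.38 and -0.51 and the SPRED1 differences were -0.59, -0.71 and -0.57. Of these, DUSP6 208892_s_at lost its call under 14 of 23 alternatives, with adjusted p-values between 0.0074 and 0.513 over all 23. SPRED1 244439_at lost its call under 9 of 22 and changed sign under 1, with adjusted p-values between 0.0039 and 0.753. With the ACTB difference as a covariate SPRY2 204011_at, DUSP4 204015_s_at and DUSP6 208891_at were not called either. They were at 0.80, 0.45 and -0.63 in that fit (adjusted p = 0.144, 0.112 and 0.0526). With the rRNA signal as a covariate none of the 9 stayed called, and DUSP4 226034_at was at 0.092 (adjusted p = 0.962). Neither covariate can be told apart from the hairpin. DUSP5, SPRY1, SPRY4, SPRED2 and ETV5 had no called difference of effects, and for SPRY1 212558_at, called after miR-30, it was -0.20 (adjusted p = 0.227).

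The largest differences of the feedback genes were between the arms, in the control cells. In shGFP cells against cel-miR-67 cells 16 of the 19 probe sets were called, 4 higher and 12 lower, where 27.9% of all probe sets were called higher and 29.1% lower. The median difference of the 19 was -0.57, against 0.04 over all probe sets. This comparison shares the shGFP arrays with the first one, so the signs of the shBCL9 and control differences of a gene are not independent. Infection with sorting, transfection and the handling of each arm cannot be told apart here.

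The 4 higher probe sets were those of the ERK phosphatases DUSP5 and DUSP6. DUSP5 was higher in shGFP cells by 0.58 (1.49-fold, adjusted p = 3.09e-07), with 12.71 to 12.73 in shGFP cells and 12.14 to 12.16 in cel-miR-67 cells. The DUSP6 probe sets were higher by 0.46 to 0.64, and 208893_s_at had 10.43, 10.48 and 10.50 in shGFP cells, against 9.85, 9.76 and 9.89 in cel-miR-67 cells (adjusted p = 4.46e-07). All of these groups were apart.

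The 12 lower probe sets were of DUSP4, the Sprouty and SPRED genes and ETV5. ETV5 203349_s_at differed by -1.47 (2.77-fold lower in shGFP cells, adjusted p = 6.08e-10), with 8.48, 8.65 and 8.54 in shGFP cells, against 10.07, 9.99 and 10.01 in cel-miR-67 cells. SPRED2 212458_at, which was called within neither arm, differed by -1.34 (2.52-fold, adjusted p = 1.03e-09) and SPRY4 by -1.32 (2.5-fold, adjusted p = 1.64e-09). SPRY2 differed by -1.27 (adjusted p = 4.17e-07), DUSP4 204014_at by -1.44 and DUSP4 226034_at by -0.86, while DUSP4 204015_s_at differed by -0.04 and was not called (adjusted p = 0.572). For SPRY2 the shGFP arrays lay under the filter level, so the size of its difference is measured from near background. The gap in the ACTB 3′ to 5′ difference was widest in this comparison. With it as a covariate 1 of the 19 probe sets was called, ETV5 203349_s_at. Sizes moved unevenly in that fit: DUSP5 was at 0.63, DUSP6 208891_at at 0.99, SPRY4 at -1.08 and SPRY2 at -1.06, whereas ETV5 203348_s_at, at -1.27 without the covariate, was at 0.036. ETV5 203349_s_at lay between -1.52 and -1.38 under all 19 alternatives, with adjusted p-values up to 0.0209. Neither the ACTB difference nor the 18S signal overlapped between these control groups, so neither covariate can be told apart from the arm.

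Across the 4 groups, shBCL9 cells had SPRY2 levels of 5.59 to 5.88, between the shGFP arrays at 4.39 to 4.74 and the miR-30 arrays at 6.03 to 6.15, and they overlapped the cel-miR-67 arrays at 5.79 to 6.09. SPRY4, SPRED2 and the tested ETV5 probe sets stayed lower in both infected groups than in both transfected groups in every array. For SPRY4 the shBCL9 mean of 6.48 ± 0.078 stood between 6.20 ± 0.085 in shGFP cells and 7.57 ± 0.074 in miR-30 cells.

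Other genes of the pathway were described in 3 lists, each gene by its brightest probe set, beside 17.1% of 14729 genes called higher and 21.8% called lower in shBCL9 cells. Of the RAS to ERK cascade 26 genes were tested in shBCL9 cells, and 6 were called higher, 7 lower and 13 not. The median was 0.07, against 0.03 over all genes. SOS1, a nucleotide exchange factor that loads RAS with GTP, averaged 7.62 ± 0.13 in shBCL9 cells and 8.51 ± 0.059 in shGFP cells (-0.89 ± 0.08, adjusted p = 1.99e-06), and its 4 probe sets ranged between -0.89 and -0.22. The exchange factors RASGRP1 and RASGRP3 were lower as well, by differences of -1.07 (adjusted p = 4.8e-06) and -0.78 (adjusted p = 1.66e-06), as was the adaptor GAB1 (-0.60, adjusted p = 3.37e-06, with the same sign in 5 of 6 probe sets). SHOC2, a scaffold that helps to activate RAF, averaged 10.63 ± 0.069 in shBCL9 cells and 10.27 ± 0.028 in shGFP cells (0.36, adjusted p = 0.000415). The RAS relative MRAS (0.37, adjusted p = 0.0114), the exchange factor RASGRP2 (0.28, adjusted p = 0.00928, with a second probe set at -0.02) and the kinase ARAF (0.27, adjusted p = 0.0023) were also higher. NF1 was under the filter.

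Of 22 other genes known as outputs of ERK 19 were tested in shBCL9 cells, and 5 were called higher, 6 lower and 8 not, with a median of 0.07. HBEGF, a growth factor of the EGF family, averaged 9.38 ± 0.079 in shBCL9 cells and 6.34 ± 0.23 in shGFP cells, a rise of 3.04 ± 0.11 or 8.25-fold (adjusted p = 5.48e-10), and its 3 probe sets ranged between 0.39 and 3.04. The G1 cyclin CCND1 was higher by 1.10 (2.14-fold, adjusted p = 1.15e-07), PHLDA1 by 0.71 (adjusted p = 1e-05, with the same sign in 5 of 6 probe sets) and ETV4, an ETS factor related to ETV5, by 0.39 (adjusted p = 0.00336). Among those called lower was FOS, an immediate early transcription factor, which averaged 4.85 ± 0.19 in shBCL9 cells, near the filter level, and 7.41 ± 0.061 in shGFP cells (-2.56 ± 0.09, adjusted p = 6.76e-10). EGR1, another immediate early factor, averaged 8.45 ± 0.041 in shBCL9 cells and 9.29 ± 0.02 in shGFP cells (-0.84, adjusted p = 6.23e-06), while the FOS relative FOSL1 was not called (0.04, adjusted p = 0.634). IER3 differed by -0.43 (adjusted p = 0.000444) and MYC by -0.34 (adjusted p = 0.00195).

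Of the 10 other MAPK phosphatases and Sprouty and SPRED relatives, all tested, 2 were called higher in shBCL9 cells, 1 lower and 7 not, with a median of -0.01. DUSP1, an immediate early phosphatase of p38, JNK and ERK, averaged 8.13 ± 0.02 in shBCL9 cells and 9.08 ± 0.08 in shGFP cells (-0.95 ± 0.06, adjusted p = 1.28e-07), although 1 of its 3 probe sets had a difference of 0.24. DUSP14 was higher by 0.30 (adjusted p = 0.00208) and DUSP16, which acts on JNK and p38, by 0.25 (adjusted p = 0.0433).

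In miR-30 cells 1.76% of the 14729 genes were called higher and 1.5% lower. The cascade list had 0 of 26 called higher and 1 lower, the RAS relative RRAS, with 6.88 ± 0.062 in miR-30 cells and 7.16 ± 0.095 in cel-miR-67 cells (-0.28, adjusted p = 0.0326). Its median was -0.05, against -0.02 over all genes. The output list had 2 of 19 higher and 1 lower, with a median of 0.03. EGR1 averaged 9.14 ± 0.13 in miR-30 cells and 8.56 ± 0.16 in cel-miR-67 cells (0.58 ± 0.08, 1.49-fold, adjusted p = 0.00323), and the AP-1 type factor MAFF was higher by 0.25 (adjusted p = 0.0313, with a second probe set at -0.01). CCND1 was lower, at 8.70 ± 0.11 in miR-30 cells and 8.98 ± 0.04 in cel-miR-67 cells (-0.28, adjusted p = 0.0482). Of the 10 phosphatases and relatives, DUSP10, which acts on p38 and JNK, was higher (0.38, adjusted p = 0.00687) and 9 were not called, with a median of -0.05.

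**Figure D4:**
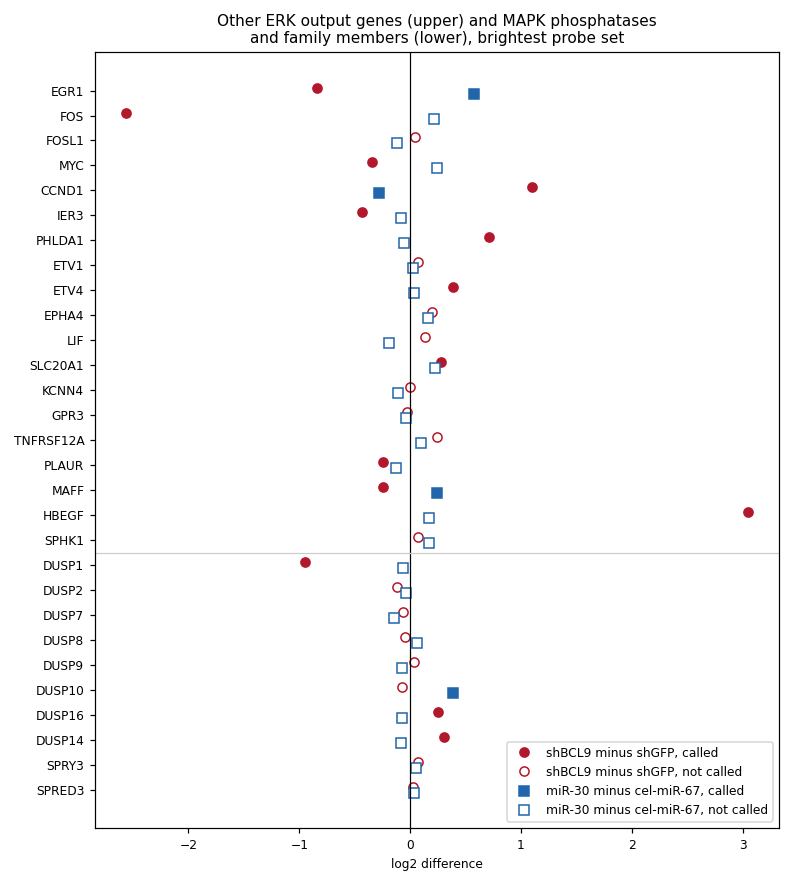
Log2 differences of the other ERK output genes (above the line) and the other MAPK phosphatases, Sprouty and SPRED genes (below it), each by its brightest probe set; circles are shBCL9 minus shGFP, squares are miR-30 minus cel-miR-67, and filled symbols were called. HBEGF lies at 3.04 and FOS at -2.56 for shBCL9, and EGR1 is called in both comparisons with opposite signs.

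The shBCL9 calls changed once measures of RNA quality entered the fit. With the ACTB 3′ to 5′ difference of each array as a covariate 8 of the 19 probe sets were called, and over all probe sets the calls fell to 5690, against 12822 without it. With the 18S rRNA signal as a covariate 0 of the 19 and 3 of all probe sets were called by limma. Neither the 18S signal nor the ACTB difference overlapped between shBCL9 and shGFP arrays, so that neither can be told apart from the hairpin. Neither of them overlapped between shGFP and cel-miR-67 arrays, and the 18S signal did not overlap between miR-30 and cel-miR-67 arrays. Fits with these covariates have the same limit there. Under the 18S covariate the called probe sets of DUSP6, SPRED1, SPRY1, SPRY2 and SPRY4 and DUSP4 204015_s_at kept their signs, with SPRY2 at 0.85 (adjusted p = 0.841) and DUSP4 204015_s_at at 0.83 (adjusted p = 0.652). The called probe sets of ETV5 and the DUSP4 probe sets 204014_at and 226034_at changed sign. Since that fit cannot separate the 18S signal from the hairpin, kept or changed signs do not show which calls hold.

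Among the tested probe sets ETV5 203349_s_at had the largest range of group means. The 3 genes whose centred group means lay nearest to it, of 14720, were TMEM267, a predicted membrane protein, at a root mean square difference of 0.032, STC2, a secreted glycoprotein, at 0.041, and LONRF1 at 0.047. STC2 averaged 8.22 ± 0.12 in shBCL9 cells and 7.90 ± 0.11 in shGFP cells, and 9.56 ± 0.13 in miR-30 cells and 9.47 ± 0.096 in cel-miR-67 cells. The likeness was measured over 4 group means, and some of so many genes lie near any such pattern.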

How the data were processed

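The table deposited by the authors holds log2 intensities of 12 arrays, made with RMA in the affy package, as the submitters' processing notes say, in versions not given in the sources used here. Precision is limited by the number of arrays. The platform annotation, which can be old, gives 1 symbol to 41097 of the 54675 probe sets, several to 1801 and none to 11777. A probe set took a name only with 1 symbol. Gene IDs of 41043 matched a RefSeq table of GRCh38.p14, which changed 0 symbols.

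The deposited values were used as they were. After removal of the AFFX control probe sets, 34402 lay above the 40th percentile of their array in at least 3 arrays and were fitted with 1 mean per group by lmFit and eBayes of limma 3.58.1, run in R 4.3.3. Contrasts set shBCL9 against shGFP, miR-30 against cel-miR-67, these effects against each other, and shGFP against cel-miR-67. Each p-value was adjusted by Benjamini-Hochberg over all 34402, and a call is an adjusted p under 0.05. All adjusted p-values are limma's and two-sided. The fit was tested on simulated data.

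The members, lists, tests and alternatives were chosen with earlier results of these data known. Named are every member probe set, up to 4 called genes per list, direction and treatment comparison by size of difference, and the 3 genes nearest to the member with the largest range of group means. Genes of the lists stand by their brightest probe set over the 12 arrays. Alternatives tried were no filter, a filter at the 60th percentile, brightest probe sets only, a further quantile normalization, median centring, array weights, a fit to the arrays of 1 comparison alone, trend and robust estimation, a replicate block, thresholds of 0.01 and 2-fold, covariates for the ACTB 3′ to 5′ difference and the 18S rRNA signal, and leaving out each array. Plots were made in matplotlib 3.10.9 (Python 3.11.15).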

Additional observations from a re-analysis of the deposited data

How the results depend on the processing

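For shBCL9 minus shGFP, 289 of the 348 values of single probe sets kept their direction and side of the threshold, 38 lost a call, 7 gained one and 14 changed sign. For miR-30 minus cel-miR-67 these numbers were 309, 22, 0 and 17, for the difference of effects 380, 41, 14 and 8 of 443, and for shGFP minus cel-miR-67 316, 22, 1 and 9 of 348. The 13 member calls of shBCL9 became 6 with brightest probe sets only, where fewer are tested, 1 at 2-fold, 8 with the ACTB covariate and 0 with the 18S covariate. The 2 member calls of miR-30 became 1 with no filter, with median centring and with the replicate block, 0 with only the arrays of the comparison, at 0.01, at 2-fold and with either covariate, and 0 to 1 on leaving out an array. The 9 calls of the difference of effects became 4 with brightest probe sets, 0 at 2-fold, 5 with the ACTB covariate and 0 with 18S. The 5 with the ACTB covariate included SPRY1 230212_at (1.13, adjusted p = 0.0236), which was not among the 9. The 16 calls of shGFP minus cel-miR-67 became 8 with brightest probe sets, 6 at 2-fold and 1 with the ACTB covariate. Of the genes in the 3 lists, the 27 calls of shBCL9 became 4 at 2-fold, 14 with the ACTB covariate and 0 with 18S. The 5 of miR-30 became 2 with no filter, 3 with median centring, 2 with only the arrays of the comparison, 10 with trend and robust estimation, 3 with the replicate block, 2 at 0.01, 0 at 2-fold, 3 with ACTB, 0 with 18S and 2 to 3 on leaving out an array. Except where stated in the report, the cause was not tested. Signal near the filter level limits SPRY2 in shGFP cells, SPRY1 230212_at and SPRED1 244439_at.

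Arrays of the 2 groups of an arm share replicate numbers. Deviations of same-numbered arrays correlated at 0.06, 0.10 and 0.07 in the infected arm and 0.18, 0.09 and 0.28 in the transfected arm. The main fit took the samples to share a number only, although these low positive values do not exclude a pairing. With a replicate block SPRY1 230212_at lost its call for shBCL9 and DUSP4 204015_s_at its call for miR-30 (adjusted p = 0.0548 and 0.053). With the replicate block 12 member probe sets were called for shBCL9, 9 for the difference of effects and 16 for shGFP minus cel-miR-67. Each shBCL9 array, but not each miR-30 array, correlated best with its own number.

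Signs changed as follows, in log2 differences. For shBCL9 minus shGFP, SPRED2 212458_at was 0.042 after quantile normalization and 0.0054 with array weights, and ETV5 230102_at was 0.016 after quantile normalization. With the ACTB covariate ETV5 203348_s_at was -0.12 and ETV5 216375_s_at -0.070. With 18S, ETV5 203348_s_at was -0.0090, ETV5 203349_s_at -0.31, ETV5 216375_s_at -0.18, DUSP4 204014_at -0.052, DUSP4 226034_at -0.097, DUSP5 209457_at 0.066 and SPRED1 244439_at 1.40. For miR-30 minus cel-miR-67, DUSP4 204014_at was -0.00045 with median centring, and ETV5 216375_s_at was 0.054 with ACTB. With 18S, ETV5 203348_s_at was -0.042, DUSP4 204014_at -0.062, DUSP6 208892_s_at -0.053, ETV5 230102_at -0.0019 and SPRY1 230212_at 0.20. For the difference of effects, ETV5 203348_s_at was -0.28, DUSP4 204014_at -0.024 and ETV5 216375_s_at -0.12 with ACTB. With 18S, ETV5 203349_s_at was -0.32, DUSP5 0.011, SPRY1 212558_at 0.38, ETV5 216375_s_at -0.097 and SPRED1 244439_at 0.86. For shGFP minus cel-miR-67, DUSP4 204015_s_at was 0.0094 after quantile normalization and 0.11 with ACTB. With ACTB, ETV5 203348_s_at was 0.036, SPRED1 226837_at 0.12, SPRED1 235074_at 0.091 and SPRY1 230212_at -1.30, and with 18S the last was -0.18. On leaving out an array in turn, the values that turned were all of uncalled differences. For shBCL9 minus shGFP, ETV5 230102_at ran between -0.16 and 0.081 and SPRED2 212458_at between -0.062 and 0.014. For miR-30 minus cel-miR-67 the ranges were -0.025 to 0.077 for DUSP4 204014_at, -0.062 to 0.014 for ETV5 216375_s_at, -0.014 to 0.043 for SPRED2 212458_at, -0.023 to 0.097 for ETV5 203348_s_at and -0.15 to 0.0038 for SPRY1 230212_at. For shGFP minus cel-miR-67 they were -0.074 to 0.18 for SPRY1 230212_at and -0.29 to 0.0039 for SPRED1 244439_at.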
